A study of Mus musculus with 4 samples.

Results

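Thymic epithelium is laid down and maintained by a small set of transcription factors, and its cortical part expresses proteins that the medullary part largely lacks. The genes described here are 9 of the 23366 gene symbols in the deposited table, taken by name and not by any measured value. They comprise 5 transcription factors of thymic epithelium (Foxn1, Trp63, Pax1, Pax9 and Hoxa3) and 4 genes known for the cortical epithelium (Psmb11, Prss16, Ly75 and Dll4). All 9 had a row in the table, 8 had a count in at least 1 pool, and 3 were high enough to be tested between the sexes. RNA was measured in medullary thymic epithelial cells (mTECs) of wild-type C57BL/6 mice, 6 to 8 weeks old, with no treatment in either group, to compare males with females. The cells were sorted as PI- CD45- MHCII+ Ly51low, and each library was made from a pool of 10 mice, with 2 pools of females and 2 pools of males. Whether a pool stands for a separate sort or day is not given in the sources used here, so p-values measure only the spread between these pools.

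FOXN1 is the forkhead factor without which thymic epithelium does not mature, and it directs genes that the cortex needs to attract and select thymocytes. Among the genes it is known to control are Dll4, the Notch ligand that commits progenitors to the T lineage, and Psmb11, which encodes the β5t subunit of the thymoproteasome. Prss16 encodes a thymus-specific serine protease, and Ly75 encodes the endocytic receptor DEC-205, present on cortical epithelium and also on dendritic cells. p63, encoded by Trp63, sustains the epithelial progenitor pool, whereas PAX1, PAX9 and HOXA3 act in the pharyngeal pouches from which the thymus forms.

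Reads counted on genes ranged from 1976272 to 7103627 per pool. The Y-linked gene Ddx3y was not counted in females and reached 445 and 89 counts in male pools 1 and 2, so each pool carried the marker of its labelled sex. Values are given as normalized CPM, which are counts scaled to library size with TMM factors for library composition. Where no read was counted, up to 3 counts remain possible, or 0.358 to 1.48 normalized CPM depending on the pool, a limit that covers counting error only. Where different genes are compared, levels are given per length as RPKM, that is normalized CPM per kilobase of exon in the NCBIM37 annotation (mm9).

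The sorted pools held transcripts of epithelial and thymocyte genes together with abundant transcripts of genes that mark dendritic cells and B cells. The 10 epithelial genes summed to between 404.8 and 694.3 normalized CPM per pool, with Spint2, Krt8, Krt18 and Epcam highest. Of 9 medullary epithelial genes, Cd40 had a mean of 348 normalized CPM, although B cells and dendritic cells also express it, Cd80 had 33.9, Tnfrsf11a 20.04 and Krt14 10.3, whereas the chemokine gene Ccl21a had 0 counts in all 4 pools. Ccl21a has near-identical copies in the genome and reads that aligned to more than 1 place were not counted, so its 0 does not show absence of expression. Enpep, which encodes the gated antigen Ly51 and is named here after its values were seen, had 1 count in pool 1 of each sex and 0 in pool 2. The 10 dendritic cell genes summed to between 9983 and 35460 normalized CPM, with Cst3, Irf8, Flt3 and Xcr1 highest. Most of this sum was Cst3, and the 9 others summed to between 998.2 and 1639. The 7 B cell genes summed to between 2404 and 4377, with Cd79a, Cd79b and Ms4a1 among the highest. The 9 thymocyte genes, with Lck, Cd8a, Cd4 and Cd8b1 highest, summed to 796.6 in male pool 1 and to between 304.8 and 392.7 in the other pools. Of the same list, Rag1 had 35 counts in male pool 1 and Themis 108, against at most 4 and 2 in the other pools. The 8 endothelial genes (Pecam1, Esam, Kdr and Egfl7 highest) and the 7 fibroblast genes (Dcn, Col3a1, Col1a2 and Col1a1 highest) stayed under 80 in every pool, and the endothelial markers Tie1 and Emcn had no count. The parathyroid genes Gcm2, Pth and Casr together stayed under 4 normalized CPM in every pool. Counts of whole pools cannot tell fewer cells of a type from less RNA per cell.

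**Figure D1:**
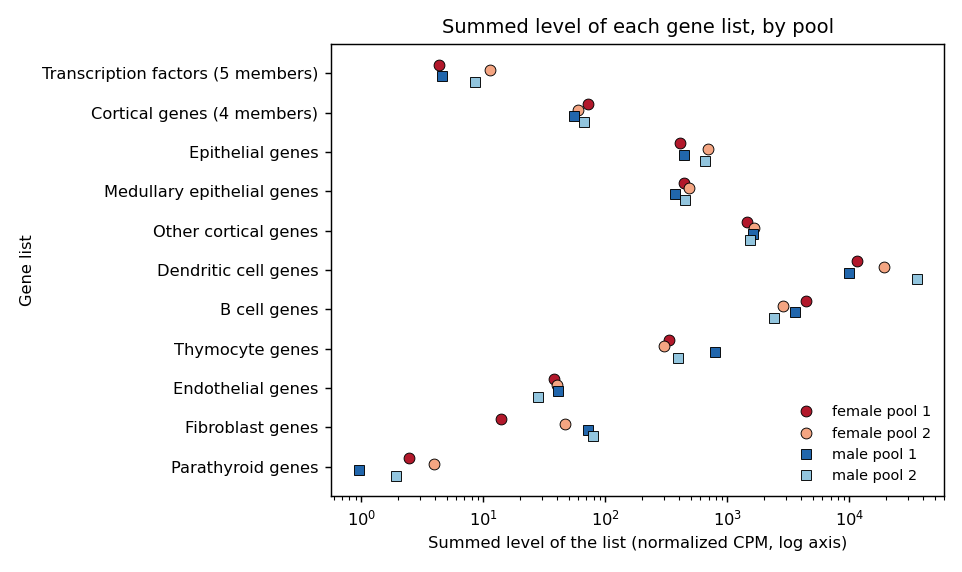
Summed level of each gene list in normalized CPM on a log axis, with 1 point per pool (circles, females; squares, males). The 5 transcription factors lie between 4.35 and 11.4 and the 4 cortical genes between 55.7 and 72.0. Both lie below the epithelial genes at 404.8 to 694.3 and the dendritic cell genes at 9983 to 35460. Cst3 alone is 89.5% to 95.6% of the dendritic cell sum, and the lists differ in size and gene length.

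Psmb11, Ly75 and Dll4 carried most of the signal of the set, and the transcription factors lay near the limit of detection. Per length, Psmb11 had the highest mean over the 4 pools at 5.19 RPKM, followed by Ly75 at 3.83 and Dll4 at 2.97. Foxn1 had 0.84, Prss16 0.811, Pax1 0.339, Pax9 0.269 and Trp63 0.191 RPKM, and Hoxa3 had none. Psmb11 lay above Ly75 in 4 of 4 pools, although their ranges overlapped, and Ly75 lay above Dll4 in 3 of 4. Dll4 lay above Foxn1 in every pool without overlap of the ranges, and Prss16 lay above Pax1 in the same way. Foxn1 exceeded Prss16 in only 2 of 4 pools, and the 2 genes changed places when the longest transcript was used as the length (0.84 and 0.922 RPKM). Neighbours among Pax1, Pax9 and Trp63 overlapped in range. All of these levels were low beside those of the epithelial keratin genes Krt8 and Krt18, whose means were 49.3 and 42.3 RPKM, and of Epcam at 21.5.

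**Figure D2:**
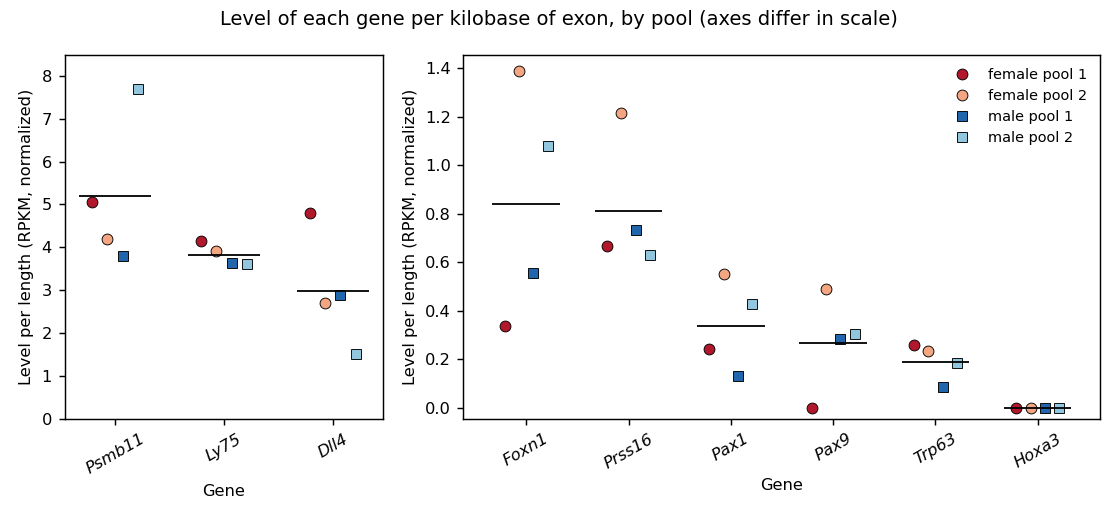
Level per kilobase of exon (RPKM, linear axes that differ in scale) of the 9 genes in each of the 4 pools, with the mean over the pools as a horizontal line. Psmb11, Ly75 and Dll4 lie between 1.499 and 7.71 RPKM in every pool, whereas the other 6 genes stay at or under 1.39.

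Psmb11, an intronless gene (chromosome 14, 55244147 to 55248393, plus strand), had the highest mean level per length of the 9 genes. It had 79 and 36 counts in female pools 1 and 2 and 135 and 85 counts in male pools 1 and 2, or 21.5, 17.8, 16.1 and 32.7 normalized CPM in the same order. The highest and the lowest value both came from males, so the sexes overlapped. Females averaged 19.6 ± 2.59 and males 24.4 ± 11.7 normalized CPM (SD, n = 2 pools each). The log2 ratio of males to females was 0.28 (standard error 0.43). The direction rested on male pool 2, without which the log2 fold change was -0.29.

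β5t replaces the β5 subunits PSMB5, of the constitutive proteasome, and PSMB8, of the immunoproteasome, in cortical epithelium. Both were far more abundant than Psmb11 in these pools. These are values of whole pools, in which dendritic cell and B cell genes were also abundant. The part of each cell type in them was not tested. Per length, Psmb5 was 54.8 to 75.4 times and Psmb8 68.3 to 113 times as high as Psmb11, depending on the pool. Of the counts on the 3 genes, Psmb11 took 1.72% in female pool 1 (Wilson 95% interval 1.38 to 2.14) and 1.12% in female pool 2 (0.808 to 1.54). Among males its share was 1.38% in pool 1 (1.17 to 1.63) and 1.75% in pool 2 (1.42 to 2.16). These intervals cover counting error only. The shares are of counts and not per length, and the exons of Psmb11 span 4247 bases, those of Psmb5 922 and those of Psmb8 2736. The mean share was 1.42% ± 0.425 in females and 1.56% ± 0.265 in males, a difference smaller than the spread between pools of a sex. No exact permutation test of 2 against 2 pools can reach p = 0.05, so none was made. Psmb5 and Psmb8 had log2 fold changes of 0.31 and 0.04, and those of the other catalytic subunits, Psmb6, Psmb7, Psmb9 and Psmb10, ran from 0.10 to 0.36. None of these 6 genes passed the test.

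Ly75 (chromosome 2, 60130160 to 60221360, minus strand) varied little between pools in normalized CPM, but not on other scales, as given with the pool ratios. Its counts were 112 and 58 in females and 223 and 69 in males, which gave levels of 30.4 and 28.7 normalized CPM in females against 26.6 in each male pool. Both male pools lay below both female pools, which was also so for 11.7% of the 10865 genes tested. Females averaged 29.6 ± 1.23 and males 26.6 ± 0.0537 (SD, n = 2 pools each), and the log2 fold change was -0.15 (standard error 0.30). Dendritic cells also express Ly75, and the dendritic cell genes were abundant in every pool. Cst3 alone made up 89.5% to 95.6% of their sum. The other 9 genes summed to 1219 and 1639 normalized CPM in females and to 998.2 and 1551 in males. Of the 10 dendritic cell genes, 10 were tested, 5 had log2 fold changes above 0, and the median was 0.04, or -0.33 without male pool 2. The part of dendritic cell RNA in Ly75 was not tested. Among the paralogs of Ly75, Mrc1 had a mean of 4.31 normalized CPM and Mrc2 1.33, and Pla2r1 had 1 count in all.

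Dll4 (chromosome 2, 119151520 to 119161698, plus strand) varied most among the 3 tested genes. Its counts were 68 and 21 in females and 93 and 15 in males, or 18.5 and 10.4 normalized CPM in females and 11.1 and 5.78 in males. Female pool 1 was highest and male pool 2 lowest, and female pool 2 lay below male pool 1, so the sexes overlapped. Females averaged 14.4 ± 5.72 and males 8.44 ± 3.77 (SD, n = 2 pools each), and the log2 fold change was -0.75 (standard error 0.49). Omitting single pools moved it as far as -1.36 (male pool 1 omitted) and -0.26 (female pool 1 omitted), with no change of direction.

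Dll4 had the most counts of the Notch ligands in 3 of the 4 pools. In female pool 2 it led Jag2 by 21 counts to 20, and in male pool 2 its 15 counts lay below the 19 of Jag2 and the 17 of Jag1. It took 52.7% of the counts on the 5 Notch ligands in female pool 1 (Wilson 95% interval 44.1 to 61.1) and 38.2% in female pool 2 (26.5 to 51.4). Among males it took 47.2% in pool 1 (40.4 to 54.2) and 28.3% in pool 2 (18.0 to 41.6). Jag2 followed with a mean of 8.87 normalized CPM, Jag1 with 4.31, Dll1 with 1.72 and Dll3 with 0.222, against 11.4 for Dll4. Per length, Dll4 had a mean of 2.97 RPKM, Jag2 2.19 and Jag1 0.739. Jag2 and Jag1, the other ligands tested, had log2 fold changes of -0.31 and -0.07. Of the 14 receptors, cofactors and targets of Notch, 11 were tested, 7 had log2 fold changes above 0 and 4 below, and the median was 0.12, against 0.027 over all genes tested. It fell to -0.14 when male pool 1 was omitted and to -0.06 when female pool 2 was. Among the most abundant of these, Rbpj, the DNA-binding partner of Notch, and the receptors Notch2 and Notch1 had log2 fold changes of 0.04, -0.17 and 0.38. The target gene Hes1 stood at 16.8 and 27.2 normalized CPM in females and at 29.5 and 87.8 in males. Its fold change was 1.41 on the log2 scale (standard error 0.57, unadjusted p = 0.0429, adjusted p = 1 by edgeR). Several Notch genes are expressed by thymocytes, and the part of thymocyte RNA in these values was not tested. Over 7 tested thymocyte genes the median was 1.06 (0.49 with male pool 1 omitted and 1.53 with male pool 2 omitted). Ptcra is in both lists, and its log2 fold change of 1.06 is that median.

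Between males and females, 0 of the 3 tested genes passed an adjusted p of 0.05. Over all 10865 genes tested with edgeR's quasi-likelihood test, 0 (0%) passed, while 48 (0.442%) had an unadjusted p under 0.05. The smallest adjusted p of this test was 0.186. It thus did not call even the Y-linked Ddx3y, which had 0 counts in females and 445 and 89 in males. DESeq2 called 3 genes and edgeR's exact test 8, without Psmb11, Ly75 or Dll4. The unadjusted p was 0.531 for Psmb11, 0.624 for Ly75 and 0.175 for Dll4, and the adjusted p of each was 1. Of the 3 genes, 1 had a log2 fold change above 0 and 2 below, with a median of -0.15, against 53.2% above 0 and a median of 0.027 over all genes tested. At these counts and with 2 pools per sex, the standard errors of 0.30 to 0.49 leave room for differences of either direction, and equal levels are not shown by a missing call. The plot of fold changes sets the 3 genes beside the related genes that were tested.

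**Figure D3:**
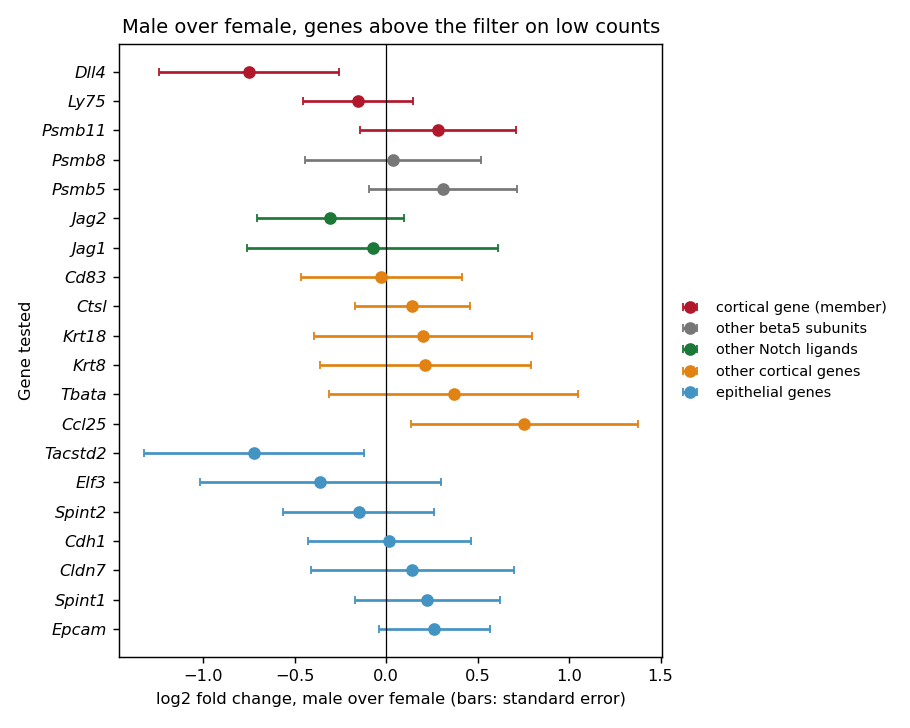
Log2 fold change of male over female (points) with its standard error (bars) for the cortical genes Psmb11, Ly75 and Dll4 and for tested genes of 4 related lists. Dll4 is at -0.75 and Psmb11 at 0.28, and 0 of the genes shown passed an adjusted p of 0.05.

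Among the genes below the filter on low counts, Prss16 (chromosome 13, 22094045 to 22101611, minus strand) had 6 counts in each female pool and, among males, 15 in pool 1 and 4 in pool 2. This corresponded to 1.63 and 2.97 normalized CPM in females and 1.79 and 1.54 in males, so the sexes overlapped. In a fit without the filter its log2 fold change was -0.37 (standard error 0.87). Per length, Psmb11 was 3.45 to 12.2 times as high as Prss16, depending on the pool.

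Foxn1 (chromosome 11, 78171079 to 78200060, minus strand) was detected in every pool, at 4 and 9 counts in females and 15 and 9 counts in males. Its level was 1.09 normalized CPM in female pool 1 (exact Poisson 95% interval 0.296 to 2.78) and 4.45 in female pool 2 (2.04 to 8.46). Males stood at 1.79 in pool 1 (1.003 to 2.96) and 3.47 in pool 2 (1.59 to 6.58). The male values lay between the female values, and the averages, 2.77 ± 2.38 for females and 2.63 ± 1.18 for males (SD, n = 2 pools each), differed by less than the spread between pools. Without the filter on low counts, the log2 fold change was -0.04 (standard error 0.81). Among its paralogs, which encode widely expressed forkhead factors, Foxn3 had a mean of 69.2 and Foxn2 of 16.4 normalized CPM, and Foxn4 had 0 counts. Per length, Psmb11 was 3.03 to 14.9 times and Dll4 1.39 to 14.2 times as high as Foxn1, depending on the pool.

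Trp63 (chromosome 16, 25683849 to 25892188, plus strand) had 8 and 4 counts in females and 6 and 4 counts in males, or 2.17 and 1.98 normalized CPM against 0.717 and 1.54. Both male pools thus lay below both female pools, on a total of 22 counts, as they did for 11.7% of the genes tested, which do not include Trp63. In a fit without the filter the log2 fold change was -1.01 with a standard error of 0.99 and an unadjusted p of 0.305. Trp53, the founding member of the p53 family, had a mean of 163.8 normalized CPM and a log2 fold change of -0.07, and the paralog Trp73 had 1.34 normalized CPM. Of 13 basal epithelial genes that accompany p63, 7 were tested, 3 had log2 fold changes above 0 and 4 below, and the median was -0.01, which became 0.54 without female pool 2 and 0.13 without male pool 2. Among the most abundant of these, Krt17 had a mean of 57.2 normalized CPM, Sfn 40.7, Krt14 10.3 and Jag2 8.87.

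The paralogs Pax1 and Pax9 were found at similar, low levels. Pax1 (chromosome 2, 147187661 to 147219031, plus strand) had 4 and 5 counts in females and 5 in each male pool, or 1.09, 2.47, 0.597 and 1.93 normalized CPM in the order female pools 1 and 2 and male pools 1 and 2. Pax9 (chromosome 12, 57792754 to 57813809, plus strand) had 0 and 5 counts in females and 12 and 4 counts in males, or 0, 2.47, 1.43 and 1.54 normalized CPM. For both genes the sexes overlapped, and the fit without the filter gave log2 fold changes of -0.60 (standard error 1.05) for Pax1 and 0.54 (standard error 1.10) for Pax9. Of the 7 other Pax genes, 6 had at most 3 counts in every pool, among them Pax3, Pax8 and Pax6. Pax5, a factor of B cells, had 14 and 1 counts in females and 20 and 6 in males.

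Hoxa3 (chromosome 6, 52118509 to 52163335, minus strand) had 0 counts in all 4 pools, which allows at most 0.358 normalized CPM in the deepest pool, male pool 1, or 0.0546 RPKM. Among 12 neighbouring or paralogous Hox genes, 10 had at most 3 counts in every pool, Hoxa10 among them. Hoxa7 had 13 and 4 counts in females and 20 and 14 counts in males, and Hoxa5 had 1 and 1 in females and 1 and 8 in males. In the NCBIM37 annotation, Hoxa3 shares 2168 bases of exon with a second gene record of the same symbol. On the opposite strand it shares 1055 bases with 5730446D14Rik, 297 with 2700086A05Rik and 292 with 5730596B20Rik. HTSeq-count sets aside reads that fall on more than 1 gene. The annotation and strand setting used for counting are not given in the sources used here, and whether these overlaps affected the Hoxa3 count was not tested. For other members, overlaps on the opposite strand were 214 bases of Dll4 with Gm14207, 189 of Pax9 with Slc25a21 and 59 of Pax1 with AI646519, and Ly75 overlaps Gm13571.

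Other transcription factors of the pharyngeal pouches and thymic epithelium were in part more abundant than the 5 factors above. Of these 12 genes, Ripply3 had a mean of 12.2 normalized CPM and Eya1 4.96, or 7.96 and 1.13 RPKM. Of the 6 tested, 4 had log2 fold changes above 0 and 2 below, the median was 0.33, and Ripply3 had the highest value at 1.25 (standard error 0.62, unadjusted p = 0.0869). The median was -0.07 without male pool 2. A further list of 10 genes held signals that act on thymic epithelium, receptors and regulators of the cell cycle. The 3 tested were the cell cycle regulators Rb1 and E2f3 and the receptor gene Kremen1. Their log2 fold changes were 0.42, 0.22 and 0.02. Wnt4, a secreted inducer of Foxn1, stood at 1.09 and 2.47 normalized CPM in females and at 1.79 and 4.62 in males, so the sexes overlapped, and Bmp4, Fgf7 and Fgf10 had at most 5 counts in any pool.

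Of 12 further genes of cortical epithelium, 6 were tested, and 5 of these had log2 fold changes above 0. Their median of 0.21 fell to -0.23 without male pool 2 and rose to 1.22 without female pool 2. Cd83, which dendritic cells and B cells also express, had a mean of 1262 normalized CPM, and Ctsl, encoding cathepsin L, Krt8 and Krt18 had 94.8, 89.0 and 59.3. Krt8 and Krt18 are also in the list of epithelial genes, and their log2 fold changes of 0.21 and 0.20 are among the 5 above 0. Ccl25, a chemokine that FOXN1 controls, is named here after its values were seen. It had 32 and 39 counts in females and 103 and 91 counts in males. These gave 8.70 and 19.3 normalized CPM in females and 12.3 and 35.0 in males, so the sexes overlapped. The log2 fold change of Ccl25 was 0.76 (standard error 0.62).

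Since the summed level of the 10 epithelial genes differed between pools, each count was also set against that sum in the same pool. Spint2 held 888 of the 1489 counts of the sum in female pool 1 and 704 of 1403 in female pool 2. In males it held 1889 of 3721 in pool 1 and 795 of 1714 in pool 2. Epcam alone ran in another order, at 37.0 and 42.6 normalized CPM in females and 44.0 and 51.6 in males. Per 1000 epithelial counts, there were 53.1 and 25.7 counts of Psmb11 in female pools 1 and 2 and 36.3 and 49.6 in male pools 1 and 2. For Dll4 there were 45.7 and 14.97 in females and 24.99 and 8.75 in males, and for Ly75 75.2 and 41.3 in females and 59.9 and 40.3 in males. Foxn1 had 2.69 and 6.42 in females and 4.03 and 5.25 in males, which brought its means in the sexes to 4.55 ± 2.64 and 4.64 ± 0.863 (SD, n = 2 pools each). On this scale the sexes overlapped for every gene with a count except Trp63, at 5.37 and 2.85 in females and 1.61 and 2.33 in males. Of all genes tested, 4.07% had both male pools below both female pools. The overlap depended on the denominator. Per count of Epcam alone, Ly75 stood at 0.824 and 0.674 in females and 0.606 and 0.515 in males. Prss16 stood at 0.0441 and 0.0698 in females and 0.0408 and 0.0299 in males. Thus Ly75, Prss16 and Trp63 did not overlap on that scale, for which no share over all genes was computed. The log2 ratio of males to females for Foxn1 was 0.03 with the sum and -0.31 with Epcam alone.

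The genes also differed between the pools of a sex. The log2 ratio of pool 2 over pool 1 for Foxn1 was 2.03 in females and 0.95 in males, and for Pax1 it was 1.19 and 1.69. Dll4 went the other way, with -0.83 in females and -0.94 in males. The directions of these 3 genes held with library size only and with pools scaled to the epithelial genes, but the sizes moved. With library size only, the male ratios were 0.35 for Foxn1, 1.09 for Pax1 and -1.54 for Dll4. Scaled to the epithelial genes, the female and male ratios were 1.26 and 0.38 for Foxn1, 0.41 and 1.12 for Pax1, and -1.61 and -1.51 for Dll4. In normalized CPM, 31.2% of all genes tested were higher and 35% lower in pool 2 of both sexes, so agreement between the sexes was common. Psmb11 was lower in pool 2 of females (-0.27) and higher in pool 2 of males (1.02), Trp63 likewise (-0.14 and 1.10), and Prss16 the reverse (0.86 and -0.22). The ratios of Ly75 were -0.08 and -0.004 in normalized CPM, -0.12 and -0.61 with library size only, and -0.86 and -0.57 when scaled to the epithelial genes. Along with Dll4, the 6 tested B cell genes were all lower in pool 2 of both sexes, as were Rb1, E2f3 and Kremen1. Along with Foxn1 and Pax1, 7 of the 9 tested epithelial genes were higher there (1 lower). So were 5 of 6 further cortical genes, 6 of 8 medullary genes and 6 of 10 dendritic cell genes (2 lower). Krt8 and Krt18 are in both the epithelial and the further cortical list and were higher in pool 2 of both sexes, so these lists are not separate. The part of any cell type in these ratios was not tested, and no test was made between pool numbers, whose meaning is not given in the labels.

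**Figure D4:**
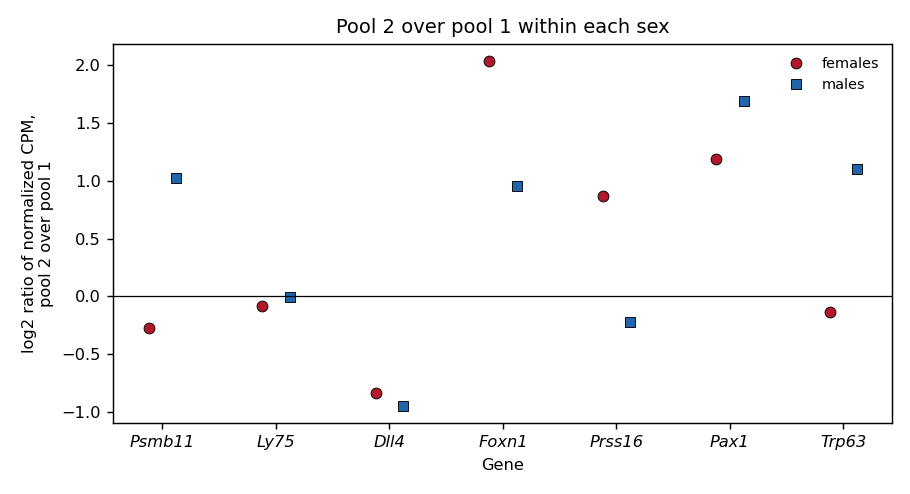
Log2 ratio of normalized CPM of pool 2 over pool 1 in females (circles) and males (squares) for the 7 genes with counts in every pool. Foxn1 and Pax1 lie above 0 and Dll4 below 0 in both sexes, and Psmb11, Prss16 and Trp63 differ in direction between the sexes.

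Over the 4 pools, the tested genes whose log2 levels followed a member most closely were Kif24, AI316807 and Zfp870 for Psmb11 (root mean square difference 0.0328 to 0.0517 after centring), Mapre2, Tango6 and Pus10 for Ly75 (0.0141 to 0.017) and Cntrob, Dusp6 and Elk4 for Dll4 (0.0414 to 0.0595). With 4 points such profiles are not rare, since 497 genes lay within 0.2 of Psmb11, 2407 of Ly75 and 122 of Dll4.

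The promoters of Psmb11, Pax1 and Dll4 are shown because Psmb11 and Dll4 are known to be controlled by FOXN1, and the window of Pax1, like that of Psmb11, held its core motif. The sequences come from RefSeq (table of build GRCm38.p6) for 7 of the 9 genes and cover 250 bases before to 50 bases after the start that RefSeq gives. That start is the 5′ end of the gene as given above for Psmb11 and Dll4, but for Pax1 it is 147190730, which lies 3069 bases inside the annotated gene, and for Pax9 it lies 3704 bases inside. Each matched NCBIM37 exactly at 1 place, at chr14:55243897-55244196 (plus strand) for Psmb11, chr2:147190480-147190779 (plus strand) for Pax1 and chr2:119151270-119151569 (plus strand) for Dll4. Capitals mark the FOXN1 core motif GACGC on either strand (GCGTC on the other strand).
Psmb11: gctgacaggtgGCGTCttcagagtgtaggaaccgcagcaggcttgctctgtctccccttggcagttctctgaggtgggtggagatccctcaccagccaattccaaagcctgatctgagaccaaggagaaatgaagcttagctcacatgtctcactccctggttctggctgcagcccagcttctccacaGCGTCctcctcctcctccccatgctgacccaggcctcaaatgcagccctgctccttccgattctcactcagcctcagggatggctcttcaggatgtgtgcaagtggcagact
Pax1: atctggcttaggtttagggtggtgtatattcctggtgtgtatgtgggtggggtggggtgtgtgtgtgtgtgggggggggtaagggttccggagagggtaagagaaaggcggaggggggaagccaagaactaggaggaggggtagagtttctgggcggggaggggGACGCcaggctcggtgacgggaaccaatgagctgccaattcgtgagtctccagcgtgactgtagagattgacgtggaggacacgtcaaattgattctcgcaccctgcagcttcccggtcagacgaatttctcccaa
Dll4: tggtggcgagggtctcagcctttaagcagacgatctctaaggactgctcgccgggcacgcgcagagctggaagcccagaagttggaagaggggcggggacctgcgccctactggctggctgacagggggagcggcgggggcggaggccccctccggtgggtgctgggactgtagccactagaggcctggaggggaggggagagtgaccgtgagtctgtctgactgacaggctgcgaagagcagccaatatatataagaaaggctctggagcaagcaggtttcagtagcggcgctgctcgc

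In these windows the motif occurred at 2 places for Psmb11, with first bases at positions -239 and -62 relative to the start, at 1 place for Pax1 (-86) and at none for Dll4. The window of Hoxa3 held 2 matches, and those of Foxn1, Pax9 and Ly75 held none. Of 32851 promoters in the table, 27.2% held at least 1 match, against 3 of the 7 windows here. The GC content was 57.3% for Psmb11, 57.3% for Pax1 and 63.7% for Dll4, with a median of 52.7% over all promoters. A match of 5 bases is a description of the sequence and not a site of binding.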

How the data were processed

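The authors sorted mTECs, prepared cDNA with the SMARTer Ultra Low kit v3, removed low-quality reads with Trimmomatic, aligned to mm9 with TopHat2 and assigned reads to genes with HTSeq-count. They deposited raw counts per gene symbol; strand setting and gene annotation are not given in the sources used here. The 5 rows that name no gene held 66.9% to 70.2% of the reads of a pool and were left out. Counts were compared with edgeR 4.0.16 (quasi-likelihood test, TMM, filterByExpr with a minimum count of 10, prior count 0.125, two-sided, adjustment over all genes tested, threshold 0.05), with sex as the only term, in R 4.3.3. The pipeline was tested on simulated data. Standard errors are the log2 fold change over the square root of F. Lengths are unions of exons in NCBIM37. Alternatives included DESeq2 1.42.0, other normalizations, filters and tests, and each pool left out. Figures were drawn with matplotlib 3.10.9. The pools of both sexes are numbered alike, but the labels do not say that a number marks a shared animal or day.

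The genes and lists were chosen with earlier results of these data known, so no p was adjusted over them alone and they were described by counts and medians. All 9 genes were named, as were the 4 most abundant genes of each list (some are not reported here), all beta5 subunits, Notch ligands and parathyroid genes, and the 3 genes most alike to each tested member (on log2 levels with 0.5 added to each count). Outside this rule, and with their values known, these were added: Enpep, Ccl25, Ccl21a, Tie1, Emcn, Rag1, Themis, Ptcra, Ripply3 by its fold change, Fgf7, Fgf10, Bmp4 and the Y-linked Ddx3y.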

Additional observations from a re-analysis of the deposited data

How the results depend on the processing

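Between the sexes, the quasi-likelihood test called 0 genes at the threshold of 0.05 (48 at an unadjusted p under it), and likewise 0 with a prior count of 2, with a filter of over 1 CPM in 2 or more pools and with upper-quartile normalization. It was 5 with library size only, 5 with pools scaled to the epithelial genes, 26 with no filter, 3 with DESeq2 and 8 with edgeR's exact test. With a pool left out it ran from 0 to 646, with 646 without male pool 1, 70 without male pool 2 and 0 without either female pool; the cause was not tested, and the lone pool was assumed to vary like the others. Psmb11, Ly75 and Dll4 were called under none of these alternatives, and their lowest adjusted p was 0.141, for Dll4 without male pool 1. With pool number as a replicate block, 17 genes passed, without these 3, and the log2 fold change of Dll4 was -0.77. The pools share only a number. Over genes, the change from pool 1 to pool 2 in females correlated with that in males at 0.519, and the first principal component separated the numbers.

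The log2 fold change of Psmb11 ran from -0.29 (without male pool 2) to 0.71 with a pool left out, and from 0.12 to 0.32 otherwise. Ly75 ran from -0.23 to -0.11 and Dll4 from -1.36 to -0.26 over all alternatives, with no change of direction. The median over the tested members stayed between -0.29 and -0.14, but not over the same genes throughout. It covered 3 members in the main fit and 5 without female pool 1, male pool 1 or male pool 2. With no filter or the filter of over 1 CPM it covered 8. Levels per length of Trp63 and Pax1 rose to 0.299 and 0.576 RPKM with the longest transcript. The medians of the lists were recomputed without each pool after the data were seen, for the 12 lists with at least 3 tested genes. Only those of the thymocyte genes, the endothelial genes and the list with Rb1, E2f3 and Kremen1 kept their sign. With 22 counts of Trp63, 19 of Pax1 and 21 of Pax9 over all pools, depth limits what can be said of the transcription factors.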
